A study of Mus musculus with 22 samples.

Results

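Mouse embryonic stem cells of a Dux knockout clone, Dux-KO22, were compared with wild-type cells (WT) after both had been kept for 3 days in medium with the solvent DMSO. The comparison used 4 of the 22 RNA-seq libraries of the series, chosen by their titles: WT-DMSO 1 and 2 and Dux-KO22-DMSO 1 and 2, called WT and KO22 below. All 4 came from cells grown with fetal bovine serum and the cytokine LIF, without the drug that the study added to other dishes. The knockout cells were made with CRISPR-Cas9. KO22 is 1 clone, so the loss of Dux and any other difference that this clone carries cannot be told apart. The titles number the libraries without saying whether the numbers mark separate cultures, and the p-values then measure only the spread between these libraries, which may be technical. The series asks whether the repeated Dux cluster is needed for the full activation of genes of the totipotent state.

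Other libraries of the series were used for reference. N22 is titled Dux-N22 and was taken as a clone of the Dux (n=1) cells, which were also made with CRISPR-Cas9. It was sequenced in DMSO in 2 libraries. WT and KO22 were also treated for 3 days with GSK-3484862, a compound that degrades the maintenance DNA methyltransferase DNMT1, in 2 libraries each, called WT-GSK and KO22-GSK. The labels and the design text give different doses of this drug. Untreated cells were sequenced as 3 E14 libraries and as 1 library each of Dux-KO clones 15, 22 and 52.

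Each of the 4 libraries held between 17973354 and 19427794 counted fragments, in a series range of 15803194 to 19427794. Mitochondrial genes took 1.78% and 1.65% of the counts in WT and 2.28% and 2.36% in KO22. Replicates differed from each other by more than counting noise in both groups, with chi-square values per degree of freedom of 2.70 and 2.69, and no library was a copy of another. The label of embryonic stem cells was checked on 12 marker genes, whose summed level, as counts scaled to the library total (CPM), was 7189 and 7275 in WT and 7110 and 7016 in KO22. The untreated library labelled Dux-KO clone 22 stood apart from the KO22 libraries: it held 5 counts of the Dux transcript, and 49 counts over the Zscan4 family, which was at 0 in both KO22 DMSO libraries. Untreated Dux-KO clones 15 and 52 also held Zscan4 RNA, with 5 and 22 counts, and held 0 and 1 counts of the Dux transcript. The E14 libraries held 92, 92 and 86 Zscan4 counts. Values of the library labelled clone 22 are given below beside those of the other untreated clones and were not tested.

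Dux is a transcription factor with a pair of DNA-binding homeodomains. It is expressed briefly when the mouse embryonic genome is first switched on, and it activates genes that mark the 2-cell embryo. In embryonic stem cell cultures a small, changing fraction of cells enters a state like the 2-cell embryo, so Dux targets such as the Zscan4 family, whose products bind telomeres and damaged DNA, are read at low levels from the whole culture. In such bulk libraries, fewer cells in that state and less RNA per cell cannot be told apart.

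The promoters of 3 genes that were at 0 in KO22 and detected in WT are shown because they hold a short sequence shared by many genes of the 2-cell group. Each runs from 250 bases before to 50 bases after the RefSeq start site (GRCm38.p6), 5′ to 3′ on the gene's strand, and capitals mark matches to ATTNAATC on either strand. Zscan4c lies at chr7:11005495-11005794 on the plus strand. Zscan4d lies at chr7:11166099-11166398 and Gm21761 at chr13:119913419-119913718, both on the minus strand.
Zscan4c: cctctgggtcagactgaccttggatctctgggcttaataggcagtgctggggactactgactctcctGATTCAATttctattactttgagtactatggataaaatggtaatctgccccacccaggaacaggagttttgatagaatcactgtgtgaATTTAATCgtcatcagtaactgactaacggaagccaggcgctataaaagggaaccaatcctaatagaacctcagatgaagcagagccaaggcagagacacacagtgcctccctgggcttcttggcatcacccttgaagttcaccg
Zscan4d: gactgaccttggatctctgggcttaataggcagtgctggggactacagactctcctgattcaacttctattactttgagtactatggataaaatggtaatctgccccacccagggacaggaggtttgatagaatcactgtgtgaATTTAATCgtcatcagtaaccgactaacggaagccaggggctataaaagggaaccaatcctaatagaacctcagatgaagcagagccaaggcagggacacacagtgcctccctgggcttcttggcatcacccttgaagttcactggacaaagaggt
Gm21761: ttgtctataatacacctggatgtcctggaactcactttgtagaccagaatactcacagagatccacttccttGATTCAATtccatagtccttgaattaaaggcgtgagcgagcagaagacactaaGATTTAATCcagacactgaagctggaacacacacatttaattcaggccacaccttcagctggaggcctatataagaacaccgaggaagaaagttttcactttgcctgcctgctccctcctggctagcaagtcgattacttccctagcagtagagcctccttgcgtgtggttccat
ATTNAATC, the core of sites where a pair of homeodomains meets, was present on either strand in 12 of the 27 promoters matched to 2-cell genes (44.4%) and in 2.28% of the promoters of all 27025 genes with one. These letters were chosen after the expression values had been seen, and a match is only a description of the sequence.

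Dux itself was close to the limit of detection in both groups. The annotated transcript (Duxf3, chromosome 10, 58229979 to 58232675, GRCm38) had 1 and 1 counts in WT against 0 and 0 in KO22, and the difference did not pass the test (edgeR quasi-likelihood, adjusted p = 0.25). The knockout label therefore cannot be checked on Dux in DMSO at this depth. After GSK-3484862 the same transcript had 19 and 18 counts in WT-GSK and 0 and 0 in KO22-GSK. Reads that map to several copies of the repeat were not counted according to the file headers, so counts of Dux, Zscan4 and other multi-copy genes are uncertain and may be too low.

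The Zscan4 genes were lower in KO22, all 5 of 5 tested, beside 28.5% of all 16641 tested genes that were called lower at an adjusted p under 0.05. WT held 90 and 115 counts over the family (4.72 and 5.92 CPM), and both KO22 libraries held 0. Zscan4d had 32 and 48 counts in WT, Zscan4c 18 and 32, Zscan4f 18 and 15, Zscan4e 14 and 17, and Zscan4b 8 and 3. Set against a floor of 3 counts over the group, Zscan4d was at least 25.8-fold lower, Zscan4c at least 16.2-fold lower, Zscan4f at least 10.7-fold lower and Zscan4e at least 10.0-fold lower. The call of Zscan4b rested on 1 library: without WT library 1 its adjusted p was 0.0521. N22 kept Zscan4 RNA, with 38 and 47 counts over the family.

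Of 49 genes listed as expressed in the 2-cell embryo, 38 could be tested, 22 were called lower in KO22 (57.9%) and none higher, and 16 were not called. Over all tested genes 28.5% were lower and 23.4% higher. A total of 35 of the 49 were at 0 in both KO22 libraries, but 6 of the 49 were at 0 in all 4 libraries and only 23 had at least 10 counts over the WT libraries. Of those 23, 14 were at 0 in KO22. The filter on low counts used all 12 libraries of the fit, and members can pass it through the WT-GSK libraries, where they are high. Of the 38 tested members, 13 had under 10 counts over the 4 DMSO libraries, and 3 of those 13 were among the 22 called lower. With only WT and KO22 in the fit, which left fewer genes to test, 13 members were called lower.

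Many of the members at 0 in KO22 belong to multi-copy families. Gm21761 had 38 and 49 counts in WT against 0 and 0 in KO22, at least 28.1-fold lower. The deubiquitinase gene Usp17le had 29 and 47 counts in WT and was at least 24.6-fold lower, and Usp17lb had 18 and 18 and was at least 11.6-fold lower. Gm5662 (28 and 44 in WT), Gm2016 (30 and 28) and Gm8300 (22 and 17) were at least 23.3-fold, 18.7-fold and 12.6-fold lower. Zscan5b was still read in KO22, with 55 and 29 counts in WT and 17 and 8 in KO22, a log2 difference of -1.71 ± 0.36 (SE, adjusted p = 4.0e-05). Other members had similar counts in both groups. Ddit4l had 62 and 79 counts in WT against 70 and 87 in KO22, Zfp750 had 59 and 63 against 83 and 73, and neither passed the test. Nelfa, a subunit of the complex that pauses RNA polymerase II, fell by a small amount, from 2433 and 2393 to 2001 and 2107.

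Across the whole transcriptome, 20 genes had at least 20 counts over the WT libraries and 0 in both KO22 libraries. Of these, 12 were on the 2-cell list. The others included Gm8994, at least 17.1-fold lower, the imprinted RNA Mirg (29 and 17 counts in WT, at least 14.9-fold lower), the Y-linked zinc finger gene Zfy1 (at least 7.75-fold lower) and the complement gene C3 (at least 6.78-fold lower). In the other direction 3 genes were at 0 in WT. They were Trav19, a T-cell receptor gene segment, Fstl5 and Ctsm, at least 8.60-fold, 7.91-fold and 6.88-fold higher in KO22.

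The difference between KO22 and WT reached far beyond this group. The test called 8643 of 16641 genes (51.9%), of which 3893 (23.4%) were higher and 4750 (28.5%) lower in KO22. Counts of called list members below are to be read beside these shares. At least 2-fold changes made up 764 of the higher calls (4.59%) and 1244 of the lower calls (7.48%). The median log2 difference over all tested genes was -0.04 and the median absolute log2 difference was 0.35, while replicates of WT and of KO22 differed by a median of 0.07 each on the log2 scale. The biological coefficient of variation shared by the 12 libraries of the fit was 0.0435, so small differences passed the test.

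**Figure D1:**
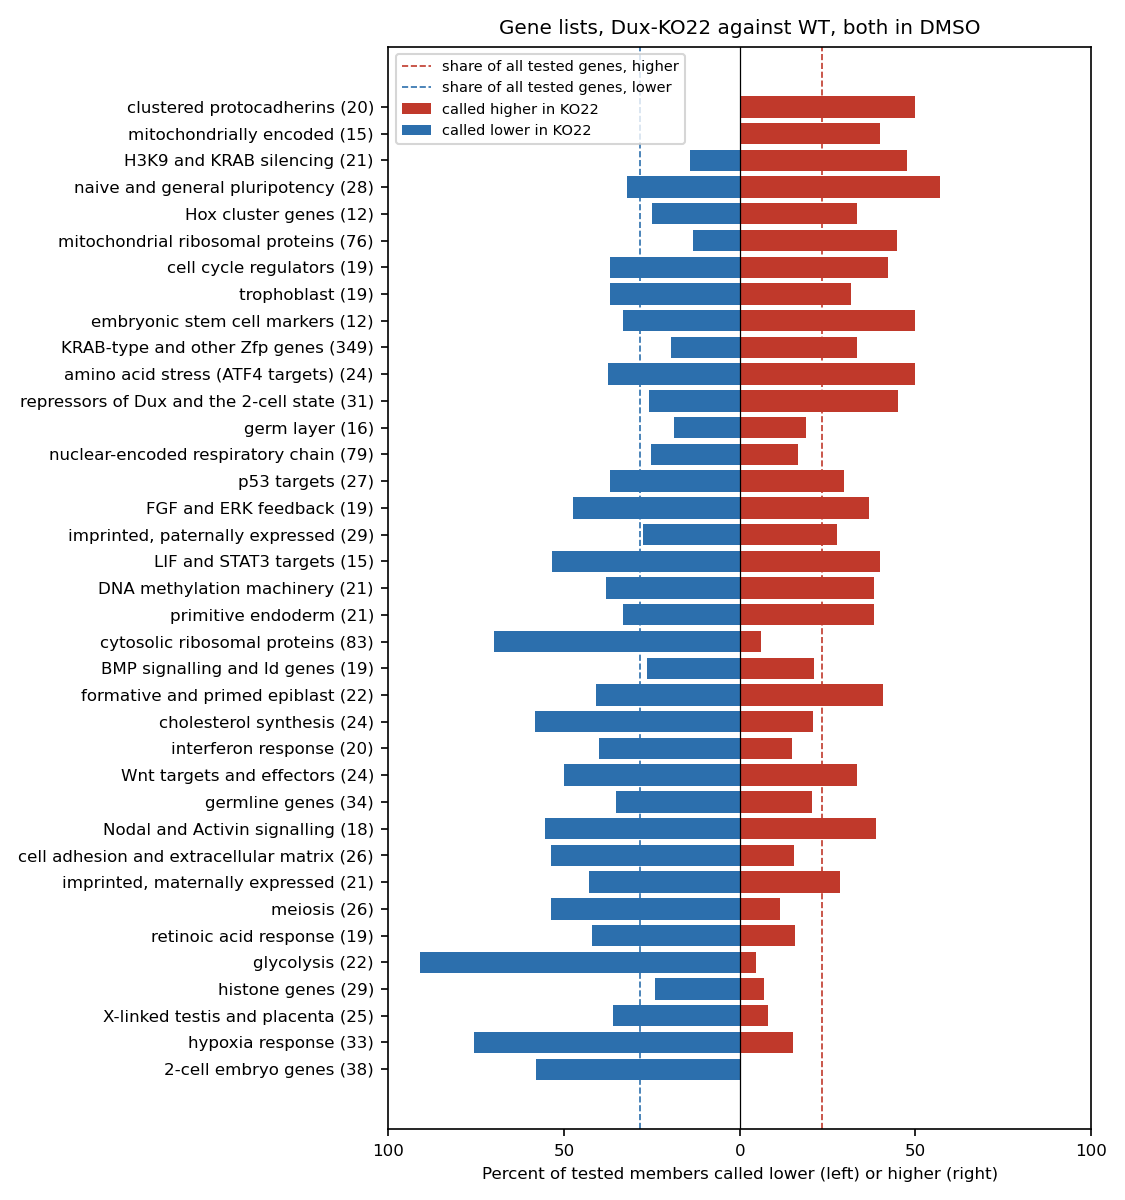
Share of tested members (x axis, percent) called higher (red, right) or lower (blue, left) in KO22 than in WT for each gene list with at least 12 tested members. The number tested is in parentheses, and dashed lines give the shares over all tested genes (23.4% higher, 28.5% lower). Smaller lists, among them the Zscan4 family and the Dlk1-Dio3 locus, are not shown. The lists are ordered by their median. Among those shown, glycolysis, hypoxia response, cytosolic ribosomal proteins, cholesterol synthesis and 2-cell embryo genes have the longest bars to the left.

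Named genes with the highest rise included Gpr83, a G-protein-coupled receptor, with 0 and 7 counts in WT and 103 and 148 in KO22 (log2 difference 5.14 ± 0.42). The cytoskeletal regulator Nckap1l rose from 26 and 42 counts to 323 and 324 (3.27 ± 0.16), and Ankrd33b from 80 and 97 to 774 and 876 (3.25 ± 0.10). Lonrf2 rose from 24 and 23 to 222 and 259, and Ptgs1, a cyclooxygenase, from 33 and 34 to 228 and 264. Each had far fewer counts in both WT libraries than in either KO22 library, with no overlap between the groups, which was so for 12356 of all tested genes (74.3%). The 15 largest rises also included the GTPase gene Irgm1 (16 and 5 counts in WT, 83 and 95 in KO22) and Tmem173, which encodes the DNA-sensing adaptor STING (10 and 10 against 65 and 70). The interferon response list had 3 of 20 tested members higher and 8 lower. Its RNA sensor Ddx58 rose by 1.58 ± 0.08 on the log2 scale and the membrane protein Ifitm1 fell by 1.07 ± 0.06.

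Among the largest falls outside the 2-cell group was Miip, which fell from 588 and 609 counts in WT to 48 and 36 in KO22 (log2 difference -3.80 ± 0.13, adjusted p = 9.8e-36). N22 had 421 and 464 counts of Miip. The Notch ligand Dll1 fell from 155 and 123 to 16 and 12, and Grin1, an NMDA receptor subunit, from 253 and 239 to 31 and 31. The lysine-degrading enzyme gene Aass fell from 272 and 317 to 32 and 39.

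The long noncoding RNAs of the Dlk1-Dio3 imprinted locus on chromosome 12 were almost absent from KO22. Imprinted genes are expressed from 1 parental allele, and DNA methylation marks the parental alleles differently. At this locus the maternal allele makes a chain of noncoding RNAs while the paternal allele makes Dlk1, Rtl1 and Dio3. The first RNA of the chain, Meg3, had 270 and 308 counts in WT against 1 and 4 in KO22, a log2 difference of -6.75 ± 0.22 (adjusted p = 7.7e-37). Rian, which hosts small nucleolar RNAs, had 297 and 307 counts in WT against 1 and 6 in KO22 (-6.35 ± 0.20), and Mirg, which hosts miRNAs, had 29 and 17 against 0 and 0. All 3 RNAs were read in both WT libraries and were at or near 0 in both KO22 libraries.

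These RNAs were at or near 0 in other cells of the series too. In N22, Meg3 had 0 and 2 counts, Rian 1 and 3 and Mirg 0 and 0. The 3 untreated E14 libraries held 7 to 9 counts of Meg3. After GSK-3484862, Meg3 had 2944 and 3027 counts in WT-GSK and 2371 and 2614 in KO22-GSK. Both treated groups held far more Meg3 than any DMSO library, and the log2 difference between them was -0.26. The difference in GSK-3484862 minus that in DMSO was 6.49 ± 0.24 for Meg3 (interaction contrast, adjusted p = 1.2e-32) and 6.23 ± 0.22 for Rian. This contrast was added after the data had been seen.

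Other genes of the locus moved less. The paternally expressed ligand gene Dlk1 fell from 34 and 29 counts to 13 and 20 (-0.90 ± 0.30, adjusted p = 0.00965), a call lost without KO22 library 1 (adjusted p = 0.128) or without WT library 1 (adjusted p = 0.0855). In all, 5 of 9 tested genes of the locus were called lower and 2 higher, with a median of -0.90. The 2 higher genes were the neighbours Begain (0.50 ± 0.21) and Wars (0.22 ± 0.04), and Begain was not called once any 1 of the 4 libraries was left out, with adjusted p from 0.0848 to 0.143. Counting did not use strand, so reads of Rtl1 and of the RNA antisense to it cannot be told apart.

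Elsewhere, imprinted genes changed in both directions. Of 21 tested maternally expressed genes, 6 were higher and 9 lower (median -0.34), and of 29 paternally expressed genes 8 were higher and 8 lower (median -0.09). The last 2 counts were not stable: 5 members were lower without KO22 library 1 or without WT library 2, and 5 were higher without KO22 library 2. The growth-restraining RNA H19 fell from 34 and 31 counts to 1 and 5 (-3.36 ± 0.42). Mest, a paternally expressed gene of chromosome 6, fell from 113 and 139 to 33 and 32 (-1.92 ± 0.14), and N22 had 19 and 19. Igf2r, the receptor that clears the growth factor IGF2, fell by 0.97 ± 0.05 on the log2 scale. The retrotransposon-derived gene Peg10, on chromosome 6, rose from 6733 and 6991 to 12948 and 14531 (1.03 ± 0.03), and Impact, which restrains the kinase GCN2, rose by 0.65 ± 0.04.

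Mest and Peg10 behaved differently after GSK-3484862. Mest had 3732 and 3685 counts in WT-GSK and 5857 and 6180 in KO22-GSK, a log2 difference of 0.70 against -1.92 in DMSO. Its difference between the treatments was 2.62 ± 0.14 (adjusted p = 7.0e-24). Peg10 remained higher in KO22-GSK, by 0.75 on the log2 scale, and the difference between the treatments was -0.28 ± 0.04.

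Most genes of the hypoxia response and of glycolysis were lower in KO22. When oxygen is low, the factors HIF1A and EPAS1 (HIF2A) are spared from prolyl hydroxylases of the EGLN family and bind the core sequence ACGTG at genes for glucose uptake, glycolysis, mitophagy and collagen hydroxylation. Of 33 tested members of a list of such genes, 25 were called lower in KO22 and 5 higher, with a median of -0.98. Glycolysis genes had 20 of 22 lower and 1 higher, with a median of -0.54. Leaving out members on chromosome 6 left 22 of 29 hypoxia genes lower and 4 higher. The higher count of the hypoxia list fell to 3 without KO22 library 1 or without WT library 2.

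Promoters of 3 hypoxia genes that were lower in KO22 are shown with ACGTG, searched on both strands, in capitals (RefSeq, GRCm38.p6, same window). Bnip3 lies at chr7:138909457-138909756, where the capitals CACGTG hold overlapping matches on both strands. Ddit4 lies at chr10:59951721-59952020 and Egln3 at chr12:54203825-54204124. All 3 are on the minus strand.
Bnip3: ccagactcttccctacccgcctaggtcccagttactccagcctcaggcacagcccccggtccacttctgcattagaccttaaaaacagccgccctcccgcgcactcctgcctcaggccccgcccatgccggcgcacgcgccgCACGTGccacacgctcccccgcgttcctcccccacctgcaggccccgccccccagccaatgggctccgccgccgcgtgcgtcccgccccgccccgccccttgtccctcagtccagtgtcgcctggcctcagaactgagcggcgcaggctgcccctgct
Ddit4: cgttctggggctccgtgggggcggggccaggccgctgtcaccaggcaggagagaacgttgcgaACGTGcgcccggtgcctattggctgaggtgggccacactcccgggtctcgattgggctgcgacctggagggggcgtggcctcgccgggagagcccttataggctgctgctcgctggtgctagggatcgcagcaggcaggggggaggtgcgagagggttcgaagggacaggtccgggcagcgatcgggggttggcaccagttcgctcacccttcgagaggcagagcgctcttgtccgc
Egln3: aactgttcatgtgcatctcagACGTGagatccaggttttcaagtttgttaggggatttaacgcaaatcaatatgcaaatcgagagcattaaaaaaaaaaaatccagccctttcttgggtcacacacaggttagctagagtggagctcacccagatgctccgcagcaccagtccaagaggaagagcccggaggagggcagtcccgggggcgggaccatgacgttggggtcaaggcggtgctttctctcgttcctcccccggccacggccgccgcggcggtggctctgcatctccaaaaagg
The motif was present in 17 of 25 hypoxia promoters (68%), in 12 of 21 glycolysis promoters (57.1%) and in 21.8% of the promoters of all genes. Among the promoters of tested genes it was present in 28.5%. The lists hold genes picked as targets of this response, so a high share of its core sequence is a property of the lists. It is not a result about KO22.

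**Figure D2:**
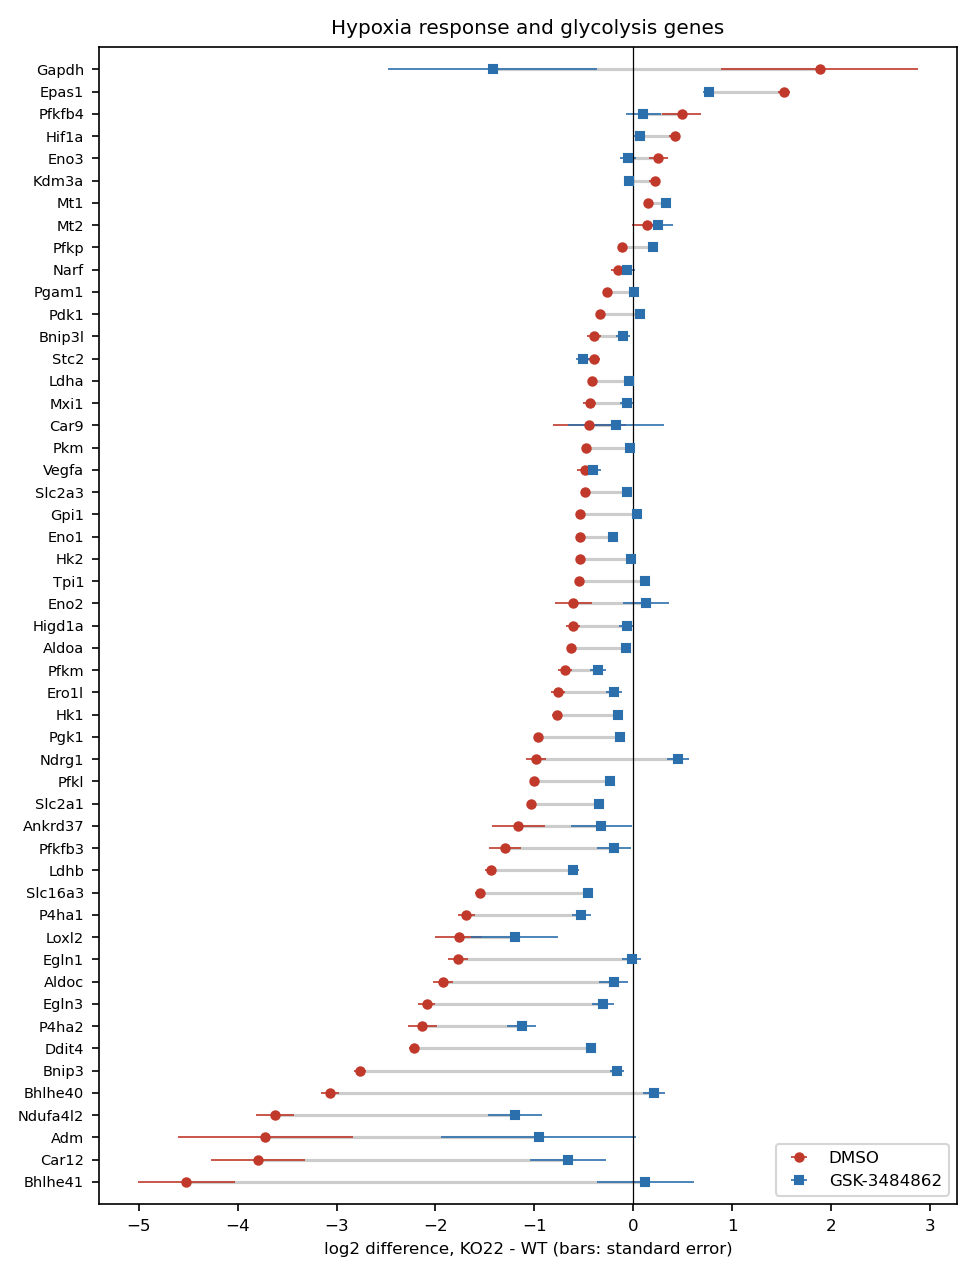
Log2 difference between KO22 and WT (x axis; bars are standard errors) for each tested gene of the hypoxia and glycolysis lists, in DMSO (red circles) and in GSK-3484862 (blue squares), ordered by the value in DMSO. Most DMSO values lie below 0, down to -4.52 for Bhlhe41, and most GSK-3484862 values lie closer to 0.

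Bnip3, a mitophagy receptor, fell from 2770 and 2873 counts in WT to 396 and 419 in KO22 (-2.76 ± 0.06, adjusted p = 1.1e-45). Ddit4, an inhibitor of mTORC1, fell from 5333 and 5503 to 1121 and 1157 (-2.22 ± 0.05). The transcriptional repressor Bhlhe40 fell from 1392 and 1558 to 175 and 171 (-3.06 ± 0.09), and its relative Bhlhe41 from 73 and 73 to 3 and 3. In each of these genes the KO22 libraries lay far below both WT libraries. Ndufa4l2, a mitochondrial protein that lowers respiration under hypoxia, fell from 510 and 520 to 28 and 54 (-3.62 ± 0.19). The carbonic anhydrase gene Car12 fell from 64 and 52 to 3 and 5.

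The oxygen-sensing hydroxylase genes fell as well. Egln3 had 1269 and 1213 counts in WT against 257 and 316 in KO22 (-2.09 ± 0.09), and Egln1 had 810 and 756 against 251 and 198 (-1.77 ± 0.10). The collagen hydroxylase genes P4ha1 and P4ha2 fell by 1.69 ± 0.08 and 2.13 ± 0.15 on the log2 scale. Vegfa, the vascular growth factor, fell by 0.49 ± 0.08. The genes of the factors themselves moved the other way: Hif1a rose by 0.42 ± 0.05, and Epas1 rose from 675 and 667 counts to 1797 and 1995 (1.52 ± 0.06). RNA levels do not show the activity of these proteins, which is set largely by their stability.

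Most steps of glucose breakdown were lower in KO22. The glucose transporter gene Slc2a1 fell from 16904 and 17080 counts to 7832 and 8441 (-1.03 ± 0.03), and phosphoglycerate kinase Pgk1 from 24815 and 25151 to 12140 and 12994 (-0.96 ± 0.03). Pfkl, a phosphofructokinase, fell by 1.00 ± 0.04 and the lactate exporter Slc16a3 by 1.55 ± 0.05 on the log2 scale. The abundant enzymes Pkm and Ldha fell less, by 0.47 ± 0.02 and 0.42 ± 0.03. Eno3, an enolase gene, was the 1 member called higher (0.26 ± 0.10, adjusted p = 0.0256), a call lost when any 1 of the 4 libraries was left out (adjusted p from 0.0587 to 0.111). Gapdh was the 1 member not called. It had 1498 and 765 counts in WT against 5503 and 2615 in KO22, the replicates of each group differed strongly, and it did not pass the test (adjusted p = 0.17). Gapdh has many processed pseudogenes, and with reads of several locations left out its count is uncertain.

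The lower level of these genes in KO22 was also found against N22, which shares the DMSO treatment. Against N22, 25 of 33 hypoxia genes were lower and 3 higher, beside 21.1% of all tested genes called lower, and 19 of 22 glycolysis genes were lower. This comparison shares the KO22 libraries with the one against WT, so it is not independent of it. Bnip3 had 2303 and 2419 counts in N22.

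In the separate GSK-3484862 libraries the shift was smaller. There, 9 of 33 hypoxia genes were lower in KO22-GSK than in WT-GSK and 3 higher (median -0.17), beside 10.1% and 12.3% of all tested genes. Bnip3 had 578 and 576 counts in WT-GSK and 471 and 559 in KO22-GSK, so treated cells of both genotypes were near the KO22 level in DMSO. The difference between KO22 and WT was more positive in GSK-3484862 than in DMSO for 21 hypoxia genes and 19 glycolysis genes (beside 18.3% of all tested genes), and more negative for 3 and 0 (13.5%). For Bnip3 this change was 2.60 ± 0.09, for Ddit4 1.79 ± 0.06, for Bhlhe40 3.27 ± 0.15 and for Ndufa4l2 2.43 ± 0.37. Miip, which is not on the list, had the same pattern, with a change of 3.70 ± 0.16.

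Levels of these genes also varied among the untreated cells. The summed level of the hypoxia list was 2212 to 2269 CPM in the 3 E14 libraries, and 4139, 2498 and 3073 CPM in the untreated Dux-KO clones 15, 22 and 52. In DMSO it was 4136 and 4134 CPM in WT and 2723 and 2681 CPM in KO22. Untreated clone 15 was thus as high as WT in DMSO, and E14 was below KO22. Bnip3 was at 22.2 to 26.8 CPM in E14, 116, 44.8 and 47.9 CPM in the 3 untreated clones, 145 and 148 CPM in WT and 22.0 and 21.7 CPM in KO22. The untreated set is a different set of dishes from the DMSO set, and no test was made across them.

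**Figure D3:**
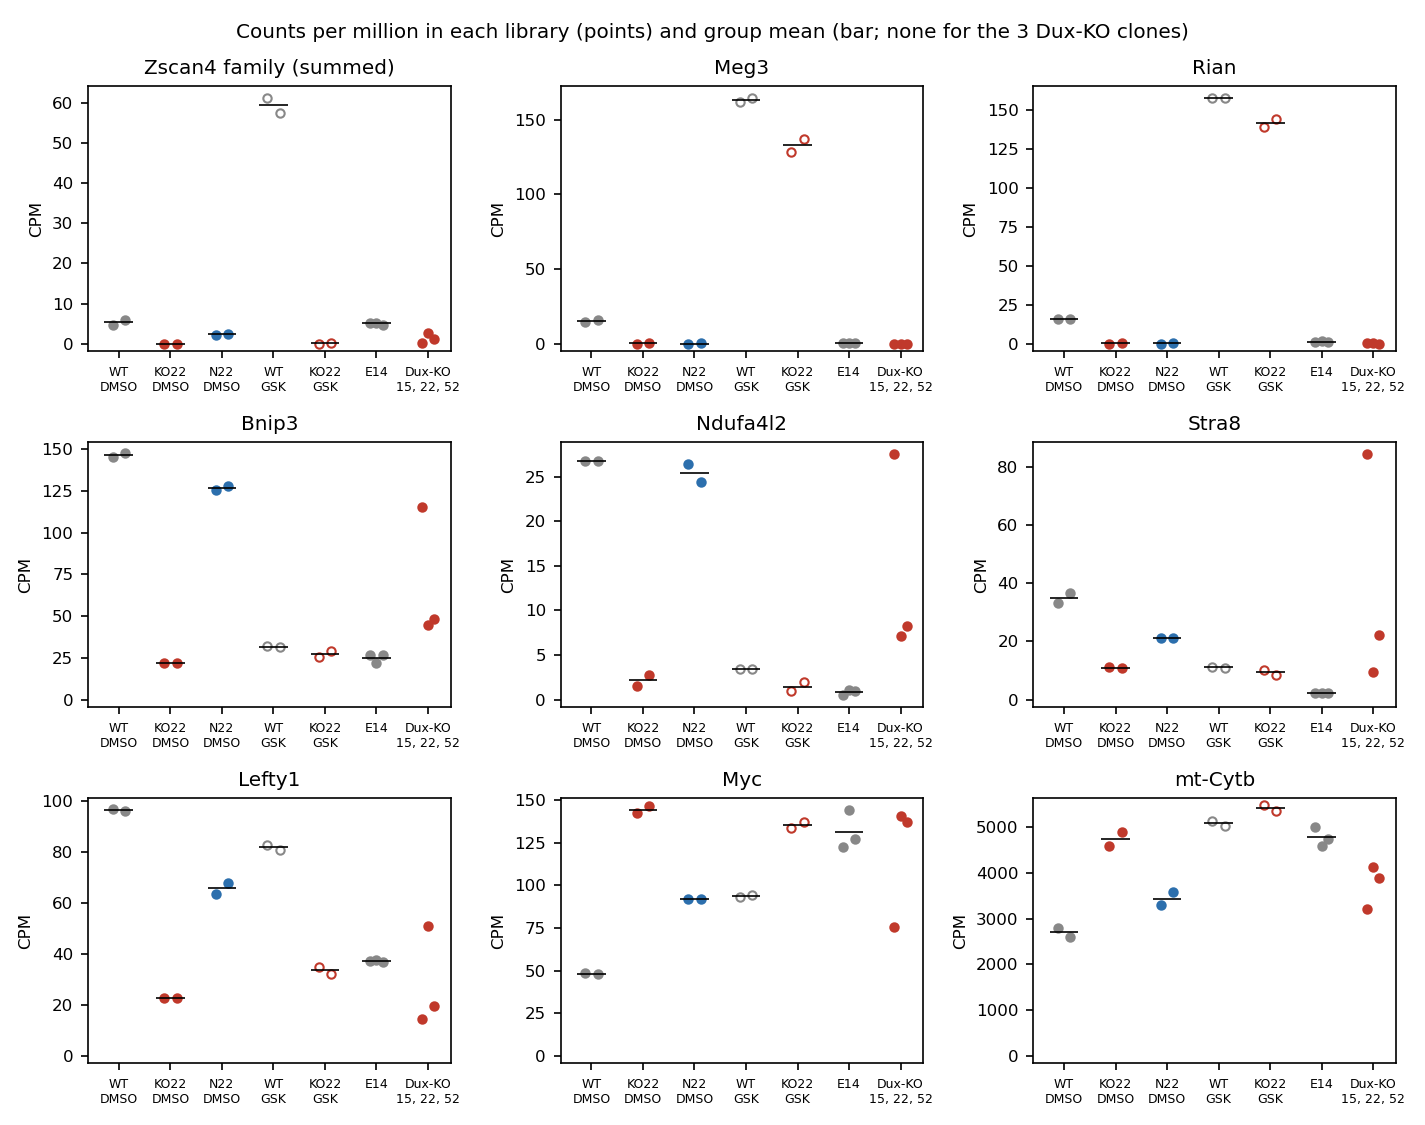
Level in CPM (y axis, linear, a different range in each panel) of the summed Zscan4 family and of 8 genes in each library; points are libraries and bars are group means, with open symbols for GSK-3484862. Zscan4, Meg3, Rian, Bnip3, Ndufa4l2, Stra8 and Lefty1 are lower and Myc and mt-Cytb higher in KO22 than in WT in DMSO, and Bnip3 and Ndufa4l2 in WT are also higher than in E14.

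Genes of the pluripotency network had a similar summed level in both groups, 9657 and 9771 CPM in WT and 10220 and 10124 CPM in KO22. Single members changed in both directions, some by more than 2-fold. Of 28 tested members, 16 were higher and 9 lower (median 0.16). Pou5f1, which encodes OCT4, rose by 0.25 ± 0.03 on the log2 scale and Nanog, on chromosome 6, by 0.37 ± 0.03, while Sox2 fell by 0.59 ± 0.03. Gbx2 rose from 732 and 749 counts to 1945 and 2025 (1.45 ± 0.06), and Tbx3 from 2645 and 2749 to 4606 and 5273 (0.90 ± 0.04). Dppa3 (Stella), which marks the germline and the early embryo, fell from 71 and 53 to 20 and 9 (-2.06 ± 0.29). Tbx3 was not called in GSK-3484862 (log2 difference -0.01), and the change between treatments was -0.91 ± 0.06.

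Genes of the formative state, through which epiblast cells leave naive pluripotency, changed in both directions, with 9 of 22 higher and 9 lower. Otx2, a driver of that exit, fell from 162 and 156 counts to 49 and 42 (-1.77 ± 0.18), and Zic2 from 434 and 477 to 145 and 131 (-1.69 ± 0.11). Foxd3 rose from 878 and 1094 to 2995 and 2927 (1.62 ± 0.09). The de novo methyltransferase gene Dnmt3b fell by 0.29 ± 0.04 on the log2 scale.

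Several target genes of Nodal, a TGF-beta family ligand, were lower, while ligand genes were higher. The Nodal antagonists Lefty1 and Lefty2, which are themselves switched on by the pathway, fell from 1852 and 1866 to 409 and 437 (-2.11 ± 0.06) and from 2036 and 2010 to 855 and 885 (-1.19 ± 0.05). Skil, a feedback inhibitor of SMAD proteins, fell by 1.09 ± 0.05 on the log2 scale. Nodal itself rose by 0.43 ± 0.06 and the activin subunit gene Inhbb by 0.80 ± 0.05, and Smad7, another feedback inhibitor, rose by 0.52 ± 0.05. In all, 10 of 18 tested members were lower and 7 higher (median -0.29). Lefty1 was lower in KO22-GSK too, by -1.26 on the log2 scale, and the difference between treatments was 0.85 ± 0.09.

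In the BMP pathway, 4 of 19 tested members were higher and 5 lower (21.1% and 26.3%, median -0.16). Both shares were slightly below those of all tested genes (23.4% and 28.5%), so the list as a whole did not stand out. Bmp4, a ligand that supports self-renewal in serum, rose from 523 and 488 counts to 1190 and 1385 (1.38 ± 0.07). Its target Id1, an inhibitor of differentiation, rose from 357 and 316 to 787 and 892 (1.34 ± 0.08). Feedback genes of the FGF and ERK pathway were mixed, with 7 of 19 higher and 9 lower. The ERK phosphatase gene Dusp6 rose by 1.22 ± 0.05 and Spry4, an inhibitor of receptor tyrosine kinases, by 0.91 ± 0.04 on the log2 scale. The receptor gene Fgfr2 fell from 231 and 216 to 32 and 39 (-2.62 ± 0.18).

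Wnt targets and effectors had 8 of 24 members higher and 12 lower (median -0.24). The transcription factor gene Lef1 fell from 164 and 176 counts to 38 and 43 (-2.04 ± 0.18), and N22, with 489 and 487, lay above both. The receptor gene Fzd7 fell by 1.40 ± 0.05 on the log2 scale, and Cdx1 rose by 1.68 ± 0.14. Targets of LIF and STAT3 had 6 of 15 higher and 8 lower, and Socs3, the feedback inhibitor of this pathway, fell by 0.81 ± 0.04.

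The growth regulators Myc and Mycn moved in opposite directions. Myc rose from 922 and 935 counts to 2561 and 2832 (1.56 ± 0.05), and Mycn fell from 3435 and 3669 to 1658 and 1802 (-1.01 ± 0.05). Mycn was also lower in KO22-GSK, by -0.88 on the log2 scale, and the difference between the treatments, 0.13 ± 0.07, did not pass the test (adjusted p = 0.13). Ccnd2, a D-type cyclin gene of chromosome 6, rose by 1.41 ± 0.07, and the whole list of cell cycle regulators had 8 of 19 higher and 7 lower, with 4 lower without KO22 library 1 or without WT library 2.

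Meiotic genes were lower more often than higher, with 14 of 26 lower and 3 higher (53.8% and 11.5%, median -0.48). Over all tested genes 28.5% were lower and 23.4% higher. Aurkc, the germ cell Aurora kinase gene, fell from 331 and 334 counts to 17 and 12 (-4.48 ± 0.28). Stra8, which is needed to begin meiosis, fell from 632 and 715 to 199 and 209 (-1.69 ± 0.11). Stra8 lies on chromosome 6, in the first of the raised blocks described below. Meioc, which keeps germ cells in meiotic prophase, fell by 1.70 ± 0.15 on the log2 scale. Among 34 germline genes 7 were higher and 12 lower (20.6% and 35.3%). Tfap2c, a factor of primordial germ cells, fell from 1689 and 1791 to 423 and 443 (-1.98 ± 0.06), whereas Tex19.1, which restrains retrotransposons, rose by 1.08 ± 0.05. X-linked genes of testis and placenta had 9 of 25 lower and 2 higher, and 5 lower without KO22 library 2 or without WT library 1.

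Genes of DNA methylation changed in both directions, while genes of H3K9 methylation and KRAB zinc finger silencing were higher more often than lower. The methylation list had 8 of 21 higher and 8 lower. Dnmt3l, the cofactor of de novo methylation, rose from 3640 and 3534 counts to 7213 and 7510 (1.06 ± 0.04). Dnmt3a, a de novo methyltransferase, fell by 0.53 ± 0.04, Tet1, which oxidizes methylcytosine, by 0.54 ± 0.03, and Dnmt1 by 0.29 ± 0.03 on the log2 scale. The H3K9 and KRAB silencing list had 10 of 21 higher and 3 lower (47.6% and 14.3%, median 0.17). Zfp57, which protects imprints from demethylation, rose by 0.64 ± 0.03 on the log2 scale and Trim28, the shared corepressor of KRAB zinc finger proteins, by 0.24 ± 0.03, while the H3K9 methyltransferase gene Suv39h1 fell by 0.68 ± 0.09. Of 31 genes named as repressors of Dux or of the 2-cell state, 14 were higher and 8 lower (median 0.04). Among 349 tested zinc finger genes with Zfp symbols 117 were higher and 68 lower (33.5% and 19.5%, median 0.08).

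Cytosolic ribosomal protein genes were lower by a small amount, with 58 of 83 lower and 5 higher and a median of -0.15. Many have processed pseudogenes, so single members are uncertain. Genes of mitochondrial ribosomal proteins had 34 of 76 higher and 10 lower (median 0.14). Genes encoded by the mitochondrial genome had 6 of 15 called higher and none lower, with a median of 0.80, and DESeq2 called 12 of them. mt-Cytb, of complex III, rose from 53316 and 50460 counts to 82468 and 94646 (0.80 ± 0.05), and the large ribosomal RNA mt-Rnr2 from 1515 and 1414 to 3829 and 4132 (1.47 ± 0.11). mt-Co1, of complex IV, did not pass the test (log2 difference -0.08 ± 0.04). Against N22 in DMSO, 3 of the 15 were higher and 2 lower in KO22 (median 0.33). Mitochondrial genes took 2.17% and 2.39% of the counts in N22, and the WT libraries in DMSO had the lowest shares of the series. In GSK-3484862 none of the 15 was higher and 2 were lower. The share of mitochondrial counts is given above for each library, and its part in these results was not tested.

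Cholesterol synthesis genes were lower more often than higher in KO22 in DMSO, with 14 of 24 lower and 5 higher (58.3% and 20.8%, median -0.20). The shares over all tested genes were 28.5% and 23.4%. Insig1, which holds the SREBP factors back when sterols are plentiful, fell from 3497 and 3519 counts to 1849 and 1941 (-0.86 ± 0.05). Srebf2, which encodes the main factor of the pathway, fell by 0.49 ± 0.03 on the log2 scale. In GSK-3484862 the direction was the opposite, with 19 of 24 higher and none lower in KO22-GSK (median 0.31). The difference between the treatments was 1.12 ± 0.07 for Insig1, higher by 0.25 in KO22-GSK, and 0.72 ± 0.05 for Srebf2, higher by 0.24. It was called more positive in GSK-3484862 for 15 of the 24 genes and more negative for 1.

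Clustered protocadherin genes encode cell-surface adhesion proteins that give neurons their identity. Of 58 in the tables, 20 passed the filter on low counts, 10 of these were higher in KO22 and none lower, and 14 were at 0 in all 4 libraries. A gene that is read only in KO22 can pass the filter through KO22 alone. Pcdhgb5 rose from 29 and 26 counts to 107 and 100 (1.94 ± 0.23), and Pcdhga8 from 14 and 8 to 62 and 51 (2.38 ± 0.35). Genes of the gamma cluster share their last exons, where reads cannot be given to a single gene. None of the 20 was called in GSK-3484862, and the difference was more negative there for 7.

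Adhesion and matrix genes had 14 of 26 lower and 4 higher. Cdh1, which encodes E-cadherin, fell from 10149 and 10135 counts to 6349 and 6884 (-0.59 ± 0.03), and Cdh3, P-cadherin, by 1.48 ± 0.08 on the log2 scale. The integrin gene Itga3 rose by 1.17 ± 0.05. Targets of the amino acid stress factor ATF4 had 12 of 24 higher and 9 lower, among them the cystine transporter gene Slc7a11, which rose from 111 and 118 to 377 and 381 (1.75 ± 0.14), and Ddit3, which fell from 499 and 565 to 195 and 204 (-1.39 ± 0.11). Histone genes had 7 of 29 lower and 2 higher (24.1% and 6.90%), beside 28.5% and 23.4% of all tested genes. Fewer histone genes were called lower when any 1 of the 4 libraries was left out.

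Markers of other cell types that a stem cell culture can hold were also read. Of 18 fibroblast markers, 10 could be tested, 3 were higher and 2 lower, and 7 were at 0 in all 4 libraries, among them Col3a1, Dcn, Lum and Postn. Their summed level was 191 and 200.2 CPM in WT and 266 and 269 CPM in KO22, and the part of this difference in the other results was not tested. Vim, an intermediate filament gene that embryonic stem cells also express, rose from 2643 and 2780 counts to 3593 and 3823, Thy1 from 330 and 362 to 629 and 769, and Fbn1 from 38 and 41 to 97 and 125. The 2 members called lower were Pdgfrb, from 251 and 267 to 145 and 121, and Col5a1, from 270 and 320 to 201 and 251, the latter a call lost without KO22 library 1 (adjusted p = 0.139) or without WT library 2 (adjusted p = 0.166). Primitive endoderm markers summed to 1460 and 1474 CPM in WT and 1592 and 1595 CPM in KO22, with 8 of 21 higher and 7 lower, and Afp was at 0 in all 4. Trophoblast markers summed to 280.1 and 284 CPM in WT and 281 and 277 CPM in KO22, with 6 of 19 higher and 7 lower, and Elf5, Plac1, Prl3d1 and Tpbpa were at 0 in all 4. Germ layer genes had 3 of 16 higher and 3 lower.

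Chromosome 6 differed from all others. Over its 805 tested genes the median log2 difference between KO22 and WT was 0.27, while the medians of the other 18 autosomes and the X chromosome lay between -0.11 (chromosome 12) and 0.00 (chromosome 5). On chromosome 6, 42.2% of tested genes were called higher and 14.4% lower. On the other chromosomes 17.4% to 27.1% were higher and 25.2% to 35.1% lower. Without the filter on low counts the median of chromosome 6 was 0.06. The same was measured in separate libraries after GSK-3484862, where the median was 0.35 on chromosome 6 and between -0.08 and 0.01 on the others.

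**Figure D4:**
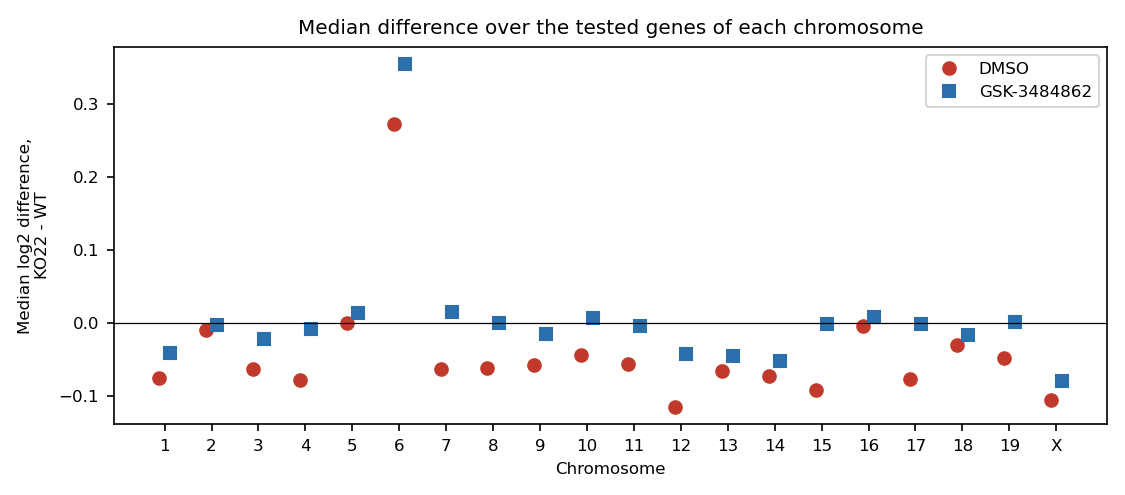
Median log2 difference between KO22 and WT (y axis) over the tested genes of each chromosome (x axis), in DMSO (red circles) and in GSK-3484862 (blue squares). Chromosome 6 lies at 0.27 and 0.35, above every other chromosome in both treatments.

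The excess was not spread evenly along chromosome 6. Its expressed genes, those whose log2 CPM averaged 2 or more, formed a first block from Vps50 to Creb5 (3498382 to 53700376), a middle stretch from Scrn1 to Eogt (54501173 to 97149182) and a last block from Tmf1 to Bicd1 (97152997 to 149563329). The boundaries were placed after the values had been seen, so the levels inside them are a description. The 148 genes of the first block had a median of 0.51, with 106 called higher and 13 lower. The 215 genes of the last block had a median of 0.45, with 148 higher and 20 lower. The 141 genes between them had a median of -0.13, with 23 higher and 54 lower.

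Over both blocks the median was 0.46 for 363 genes, a fold of 1.38, and 254 were higher and 33 lower. The 10649 expressed genes of the other chromosomes had a median of -0.03. Each KO22 library showed it, with medians of 0.46 and 0.48 over the mean of WT. In GSK-3484862 the median over both blocks was 0.53, with 292 genes higher and 6 lower. N22 in DMSO had a median of -0.03 over WT for the same genes. The untreated Dux-KO clones 15 and 52 had medians of 0.45 and 0.46 over E14, and the untreated library labelled Dux-KO clone 22 had -0.13.

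**Figure D5:**
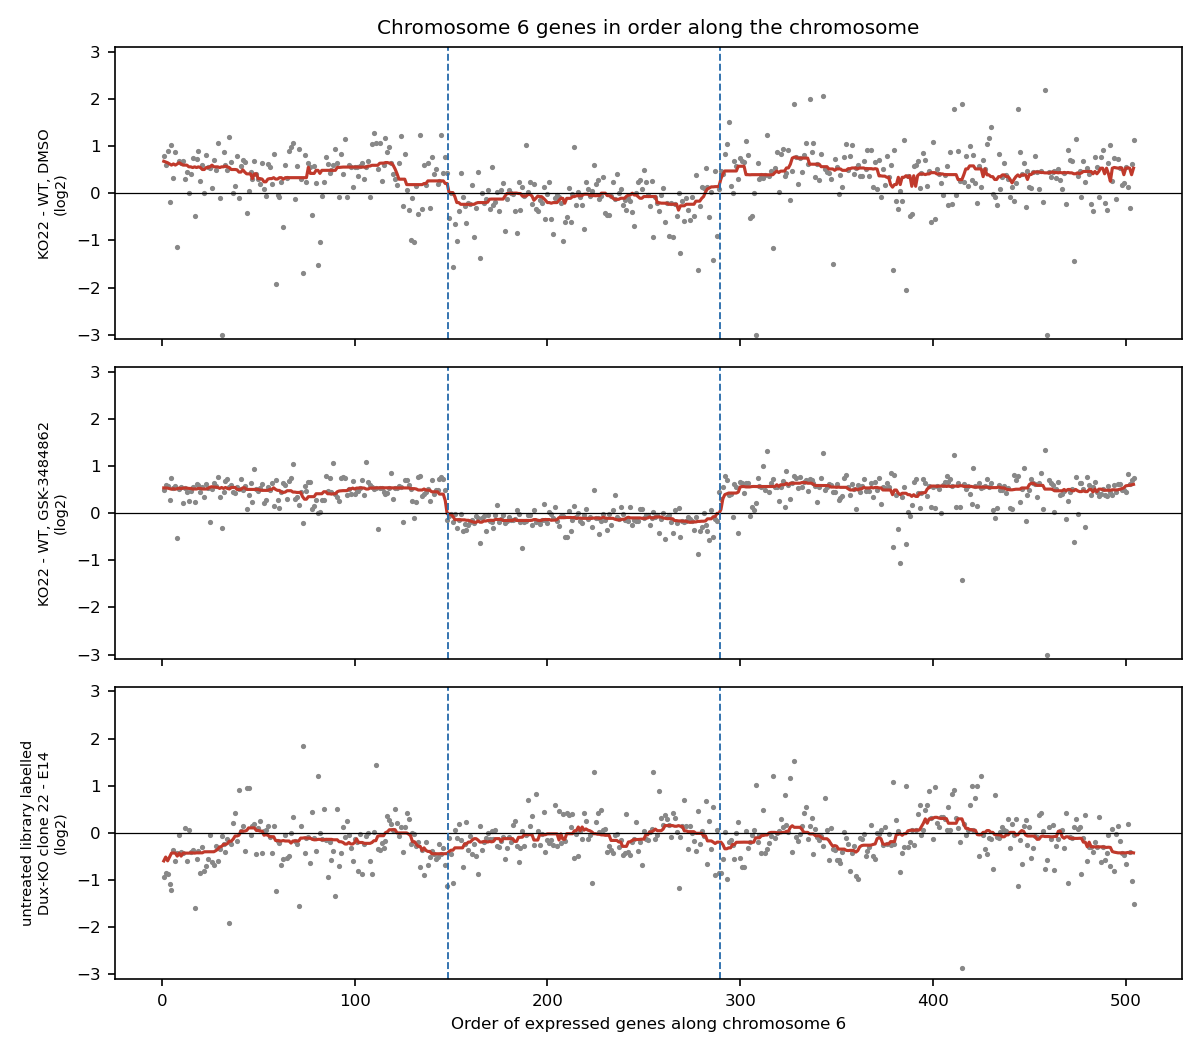
Log2 difference (y axis, limited to 3 in either direction) of each expressed gene of chromosome 6 in its order along the chromosome (x axis), with a running median in red, for KO22 against WT in DMSO, the same in GSK-3484862, and the untreated library labelled Dux-KO clone 22 against E14. Dashed lines part the first block, the middle stretch and the last block, whose medians in DMSO were 0.51, -0.13 and 0.45; the untreated library does not show these steps.

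Bins of 10 Mb gave the same picture. Of 11 bins on chromosome 6 with at least 20 expressed genes, 7 lay above every one of the 193 bins on other chromosomes in DMSO, whose medians ran from -0.26 to 0.15, and 7 did so in GSK-3484862. The highest window of 20 neighbouring tested genes in the genome was on chromosome 6, from Tada3 to Tatdn2 (113366025 to 113697050), with a median of 0.82 and 16 members higher and none lower. Its member Prrt3 rose from 57 and 65 counts to 206 and 236 (1.88 ± 0.16). The lowest window was on chromosome 12 (87332488 to 88321047), with a median of -2.94, 9 members lower and 1 higher. It holds the 2-cell genes Gm8300, Gm2016 and Gm5662, which were at 0 in both KO22 libraries. Such genes can pass the filter on low counts through the WT-GSK libraries, where they are high. The size of a log2 difference from a group at 0 is uncertain, so this median is only a description. The highest window off chromosome 6 held the gamma protocadherins of chromosome 18 (median 0.80), and the lowest off chromosome 12 held histone genes of chromosome 13, from Abt1 to Hist1h1a (median -1.19, 7 lower and 2 higher).

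Several genes named above are on chromosome 6. Aass, Gm8994, Bhlhe40, Bhlhe41, Dppa3, Mest and Stra8 fell although they lie in the raised blocks, and so did Ldhb, which is not named above. The higher levels of Nanog, Ccnd2 and Peg10 were measured on a chromosome where most expressed genes of the raised blocks were higher. Of 12 tested Hox genes 4 were called higher, 2 of them off chromosome 6, and 3 of the 5 cytosolic ribosomal protein genes called higher were off it.

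Genes next to Dux on chromosome 10 showed no common shift. Within 2 Mb of Dux 24 genes were tested, 7 were higher and 9 lower, and the median was 0.03. The nearest called gene, Gcc2, which encodes a Golgi tethering protein, rose by 0.65 on the log2 scale, and Chst3, a chondroitin sulfotransferase, by 0.75. The hypoxia genes P4ha1 and Ddit4 are in this interval.

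The GSK-3484862 libraries share no library with the DMSO comparison, although both use the same clone. In them 3728 genes were called (22.4%), 2044 higher (12.3%) and 1684 lower (10.1%) in KO22-GSK. Of the 3893 genes higher in KO22 in DMSO, 1305 (33.5%) were called higher there and 70 lower. Of the 4750 lower genes, 1169 (24.6%) were called lower and 208 higher. Read the other way, 63.8% of the genes higher and 69.4% of those lower in GSK-3484862 were called in the same direction in DMSO. The median absolute difference was smaller in GSK-3484862, 0.18 against 0.35. The difference itself differed between the treatments for 5286 genes (31.8%), 3042 more positive in GSK-3484862 and 2244 more negative.

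Against N22 in DMSO, 6507 genes were called (39.1%), 3002 higher (18.0%) and 3505 lower (21.1%) in KO22. In the untreated cells the sign of the 2-fold changes differed between clones. Only expressed genes were used, those whose log2 CPM averaged 2 or more over the 12 libraries of the fit. These were 296 of the 764 2-fold higher genes and 466 of the 1244 2-fold lower genes. Of the 296 higher genes, 45.9%, 51.0% and 74.3% were above E14 in Dux-KO clones 15, 22 and 52. Of the 466 lower genes, 30.0%, 36.5% and 48.7% were below E14 in the same clones. Over all expressed genes 42.3%, 45.6% and 51.1% had the same sign as in DMSO. Each untreated clone is a single library, so no test was made.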

How the data were processed

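Gene counts of 22 RNA-seq libraries of mouse embryonic stem cells were used as the authors deposited them: whole-number counts of read pairs per Ensembl gene (GRCm38), 1 table per library. Per the file headers, featureCounts counted read pairs without multi-mapping reads and without strand, so multi-copy genes can be undercounted and overlapping genes on opposite strands cannot be separated. The submitters' processing notes name fastp 0.23.2, HISAT2 2.1.0, featureCounts 2.0.1 and DESeq2 1.40.2. Symbols came from GENCODE M21 for 47310 of 47729 identifiers. Replicates were not pooled.

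Groups came from the library titles. The main test was edgeR 4.0.16 (R 4.3.3, limma 3.58.1; robust quasi-likelihood, TMM factors 0.981 to 1.03) on the 12 libraries of the DMSO and GSK-3484862 set, with 1 mean per group and Benjamini-Hochberg adjustment over the 16641 genes kept by filterByExpr (minimum count 10). Log2 differences are KO22 minus WT ± SE, with 2 libraries a group. A gene at 0 in a group was bounded by setting the group's total to 3 counts, and ratios of 1 to 3 counts have exact 95% intervals. Both cover counting error only. CPM values used library totals. The scripts were tested on simulated data.

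Genes were named by a rule: Dux and Zscan4 genes, the 15 largest non-overlapping changes in each direction, up to 4 members of each list by p, genes within 2 Mb of Dux, genes at 0 in 1 group, and genes of the extreme windows. Some genes that the rule names are not reported here. Others were chosen after their values were seen. The comparison, lists and members were chosen with earlier results of these data known. Alternatives were DESeq2 1.42.0, its size-factor method in edgeR (RLE), no filter on low counts, a fit on only the compared groups, a replicate block, and leaving out each library. The list counts without chromosome 6 and the contrast between treatments were added after seeing the data.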

Additional observations from a re-analysis of the deposited data

Results flagged for a closer look

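The untreated library labelled Dux-KO clone 22 held 5 counts of the Dux transcript Duxf3. The 3 untreated E14 libraries held 1, 0 and 0, untreated Dux-KO clones 15 and 52 held 0 and 1, and the KO22 libraries held 0 in DMSO and in GSK-3484862. Values of the library labelled clone 22 are given only beside those of the other untreated libraries, with no test.

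Among the genes picked for this contrast, the difference between KO22 and WT differed between GSK-3484862 and DMSO for 13 (edgeR interaction contrast, adjusted p below the threshold). Mycn, picked with them, did not pass (adjusted p = 0.13). Over all 16641 tested genes, 5286 (31.8%) were called in this contrast, so the 13 are examples from a common pattern. The values are log2 differences in GSK-3484862 minus those in DMSO. They were 6.49 for Meg3, 6.23 for Rian, 3.70 for Miip, 3.27 for Bhlhe40, 2.62 for Mest, 2.60 for Bnip3, 2.43 for Ndufa4l2, 1.79 for Ddit4, 1.12 for Insig1, 0.85 for Lefty1 and 0.72 for Srebf2. Negative values were found for Tbx3, with -0.91, and Peg10, with -0.28. The genes were chosen after their values in both treatments had been seen.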

How the results depend on the processing

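The calls of KO22 against WT in DMSO, 8643 in the main test, numbered 7301 with DESeq2 (7249 shared), 8615 with RLE factors, 8366 without the filter on low counts and 8643 of 15115 genes tested with only the compared groups (8048 shared). Leaving out 1 library gave 7386 to 7455 calls, 3296 to 3393 higher and 4006 to 4159 lower. In GSK-3484862, DESeq2 gave 2451 calls, 1353 higher and 1098 lower, with 2259 adjusted p missing, and leaving out 1 library gave 2602 to 2769 (1364 to 1499 higher, 1189 to 1270 lower). Against N22 it gave 5167 to 5215 (2359 to 2444 higher, 2741 to 2823 lower). For the difference between treatments DESeq2 called 2015 genes more positive in GSK-3484862, and leaving out 1 library gave 4455 to 4683 calls (2498 to 2638 more positive, 1917 to 2045 more negative). The cause of these shifts was not tested.

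Same-numbered libraries did not deviate together (correlations -0.02 to 0.03), so no large shared deviation was seen. Such correlations cannot show whether equal numbers mark a shared culture or preparation, because a shared origin need not leave a large deviation. With the replicate block 8655 genes were called in DMSO (3903 higher, 4752 lower), 3742 in GSK-3484862 (2054 and 1688), 6525 against N22 (3021 and 3504) and 5320 between treatments (3062 and 2258).

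Of 232 named genes called in the main test, 215 kept their call and direction in all alternatives run and 17 did not. Near Dux, uncalled genes changed sign when 1 library was left out: Gm9987 ranged from -1.24 (without KO22 library 1) to 1.26, with -0.63 without WT library 2, and Sh3rf3 from -0.50 (without KO22 library 2) to 0.59. The medians of 4 lists changed sign in at least 1 setting: formative genes, paternally expressed imprinted genes, p53 targets and nuclear-encoded respiratory chain genes. With 2 libraries a group and a single clone, genes with few counts are the least certain.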

Other observations

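Some lists not described above also changed in both directions. Genes of the p53 pathway had 8 of 27 tested members higher and 10 lower in KO22. Tigar, a regulator of glycolysis on chromosome 6, rose from 1409 and 1445 counts to 3041 and 3286, and Bbc3, which encodes the cell death protein PUMA, fell from 2400 and 2416 to 1175 and 1093. Genes of the retinoic acid response had 8 of 19 lower and 3 higher, with 5 lower without KO22 library 1 or without WT library 2. The transglutaminase gene Tgm2 fell from 321 and 319 to 125 and 131, and Meis2, a homeobox gene, rose from 27 and 24 to 105 and 110. In the germ layer list, Pax6 fell from 181 and 183 to 53 and 52, and Tbx20, a heart transcription factor, rose from 18 and 16 to 93 and 81.

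A few genes were read almost only in 1 group, and 3 of them are named here after their values were seen. Evx1, a homeobox gene next to the Hoxa cluster, had 1 or 2 counts in each WT library and 47 and 55 in KO22, a ratio of 35.1 (exact 95% interval 11.7 to 173, counting error only). Cdx2, a factor of trophoblast and hindgut, had 2 counts over the WT libraries and 21 over KO22, a ratio of 10.8 (2.65 to 95.3). The call of Cdx2 depended on KO22 library 2, without which its log2 difference was 2.52 against 3.26 in the main test. Fv1, a restriction factor derived from an endogenous retrovirus, had 53 and 47 counts in WT against 2 and 0 in KO22, a ratio of WT over KO22 of 48.5 (13.1 to 406). Of the Y-linked genes, Ddx3y rose from 1186 and 1212 to 1477 and 1686 while Uba1y fell from 142 and 133 to 62 and 73, so they had no common direction.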
